A study of Sus scrofa with 6 samples.

Results

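The transcripts of 10 genes for the meiotic and mitotic forms of cohesin, for its regulators and for CTCF were followed in pig oocytes: SMC1A, SMC1B, SMC3, RAD21, REC8, STAG2, STAG3, SGO2, WAPL and CTCF. They were taken by gene name from a table of 19271 named genes, and all 10 were found. The series compares oocytes with different developmental competence from abattoir ovaries of prepubertal gilts. Oocytes came from large antral follicles, 3 to 6 mm across, or from small antral follicles, 1.5 to 1.9 mm across, with 3 libraries in each group and no further treatment given in the labels. The cumulus cells were removed before RNA was isolated, and a library is a pool of oocytes. The protocol states 360 oocytes with 3 replicates, without saying whether that is per group or in all. The labels do not say whether each replicate came from its own collection of ovaries. The p-values therefore cover only variation among the sequenced libraries, and that variation may be technical.

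Cohesin is the ring-shaped protein complex that holds sister chromatids together and extrudes chromatin loops. A ring is built from SMC3, an SMC1 partner, a kleisin that closes the ring and a STAG subunit bound to the kleisin. Somatic cells use SMC1A, RAD21 and STAG1 or STAG2, whereas germ cells add the meiotic forms SMC1B, REC8 and STAG3. In mouse oocytes, cohesion set up in the fetal ovary has to last until the meiotic divisions, where REC8 is cleaved by separase and is protected at centromeres by SGO2. WAPL opens rings and releases them from chromatin, and CTCF is the zinc finger protein that halts loop extrusion at its binding sites.

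Total counts ranged from 8015357 to 56887282 reads per library, with large-follicle library 3 the shallowest. That library also stood apart on the first principal component (score 54.5, against -15.0 to -6.03 for the others), so results that change without it are given both ways. The oocyte markers GDF9, BMP15, ZP2, ZP3 and FIGLA summed to 8835 to 10491 CPM in large-follicle libraries and 12442 to 13319 CPM in small-follicle libraries. CPM is a read count scaled to a common library size. All 5 of these markers had lower means in large-follicle oocytes, each at an unadjusted p under 0.05 by edgeR. Of all genes tested, 8.17% were lower at that threshold. After the adjustment described below, 0 markers passed by edgeR and 3 by DESeq2. DESeq2 called 2.88% of the genes to which it gave an adjusted p as lower. Granulosa and cumulus markers, 10 of 13 listed being in the table used, summed to 24.8 to 80.6 CPM in libraries of large and 14.9 to 86.2 CPM in those of small follicles, mostly from INHBA. FSHR averaged 0.622 ± 0.238 CPM in oocytes of large and 0.667 ± 0.776 CPM in those of small follicles (SD, n = 3 each). Theca and stromal markers summed to 11.09 to 13.0 CPM in large-follicle and 13.0 to 14.7 CPM in small-follicle libraries. Blood, immune and endothelial markers summed to 6.30 to 8.57 CPM in large-follicle and 7.002 to 7.31 CPM in small-follicle libraries. None of the markers in these lists was at 0 in every library. Their part in the results was not tested.

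SMC1B and its ring partner SMC3 were the most abundant of the 10 transcripts per length, in oocytes of both follicle classes. Levels per length are given as TPM, which the authors made by scaling counts to gene length and library depth. SMC3 averaged 177 ± 16.6 TPM in large-follicle and 139 ± 8.38 TPM in small-follicle oocytes (SD, n = 3 each). SMC1B averaged 167 ± 11.7 TPM in large-follicle and 129 ± 8.06 TPM in small-follicle oocytes. The ranges of these 2 genes overlapped within each group, although SMC3 was above SMC1B in all 3 libraries of each. WAPL came next, at 139 ± 11.3 TPM in large-follicle and 119 ± 8.15 TPM in small-follicle oocytes. In small-follicle oocytes the ranges of SMC1B and WAPL overlapped.

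CTCF, SGO2 and RAD21 formed a middle tier. CTCF averaged 61.1 ± 5.11 TPM in large-follicle and 49.0 ± 1.995 TPM in small-follicle oocytes. SGO2 averaged 58.2 ± 8.17 TPM in large-follicle and 52.0 ± 0.207 TPM in small-follicle oocytes. RAD21 averaged 55.0 ± 7.48 TPM in large-follicle and 47.8 ± 1.41 TPM in small-follicle oocytes. In large-follicle oocytes neighbours within this tier overlapped in range. In small-follicle oocytes SGO2 lay above CTCF without overlap, and CTCF and RAD21 overlapped.

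STAG2, STAG3 and SMC1A formed a lower tier. STAG2 averaged 27.0 ± 4.10 TPM in large-follicle and 27.3 ± 2.83 TPM in small-follicle oocytes. STAG3 averaged 22.3 ± 4.02 TPM in large-follicle and 28.6 ± 2.35 TPM in small-follicle oocytes. SMC1A averaged 22.6 ± 0.910 TPM in large-follicle and 19.0 ± 1.49 TPM in small-follicle oocytes. In large-follicle oocytes STAG3 was the lower neighbour of SMC1A and overlapped it, while in small-follicle oocytes STAG3 was the upper neighbour of STAG2 and overlapped that gene. REC8 was far below all others, at 0.510 ± 0.381 TPM in large-follicle and 0.566 ± 0.324 TPM in small-follicle oocytes.

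**Figure D1:**
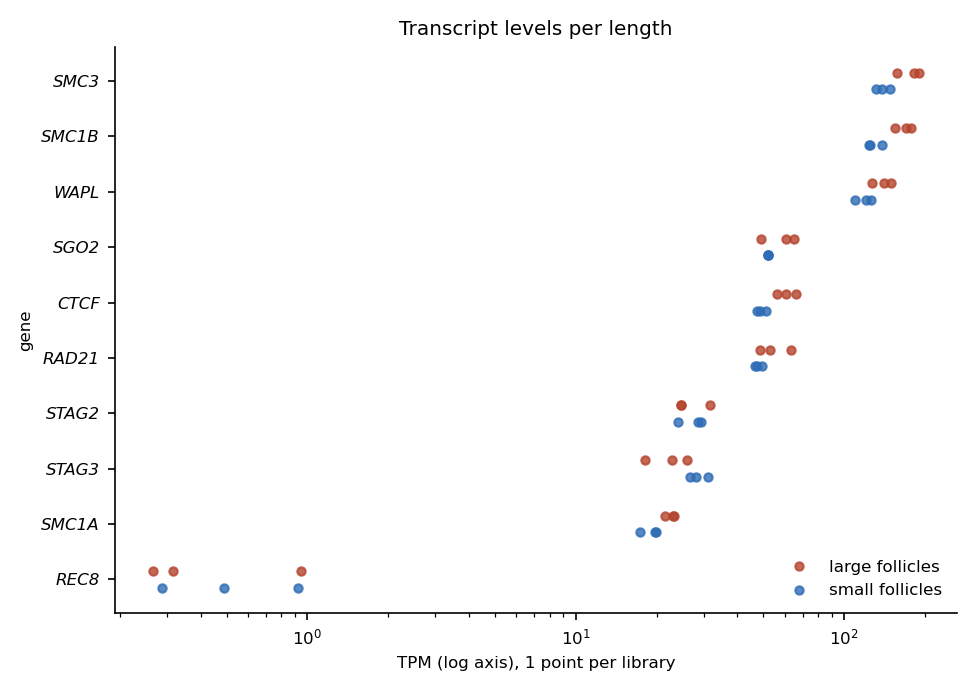
Transcript levels of the 10 genes in TPM on a log axis, with 1 point per library, large-follicle libraries drawn above small-follicle libraries for each gene. SMC3, SMC1B and WAPL lie at 110 to 190 TPM, and REC8 lies under 1 TPM in all 6 libraries.

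Between the follicle classes, 0 of the 10 genes passed edgeR's quasi-likelihood test on counts at a Benjamini-Hochberg adjusted p under 0.05 over 14091 genes, where 0.0639% of all genes tested were called. All 10 passed the filter on low counts and were tested. At an unadjusted p under 0.05, 6 members stood higher and 1 lower in oocytes of large follicles, against 9.85% and 8.17% of all genes tested. DESeq2, run as a second tool, gave an adjusted p to 9 of the 10, all but REC8. It called 3 of these 9 as higher (SMC1B, SMC3 and CTCF) and 0 as lower, against 3.37% and 2.88% of the genes to which it gave an adjusted p. The median log2 difference, large minus small follicles, was 0.22 over the 10 members and 0.0039 over all genes tested. The members were chosen with earlier results of these data known, so their counts and median beside all genes are a description only. In bulk samples such as these, fewer cells of a type and less RNA per cell cannot be told apart.

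By edgeR, most of the members passed only when large-follicle library 3 was left out, and calls over all genes went from 9 to 1899. By DESeq2, SMC1B, SMC3 and CTCF also passed with that library. The log2 differences of SMC1A and CTCF moved little by edgeR, from 0.26 to 0.27 and from 0.33 to 0.31. Without that library, 7 members rose in large-follicle oocytes by edgeR's adjusted p and 0 fell. The 7 were SMC1A, SMC1B, SMC3, RAD21, SGO2, WAPL and CTCF. Of all genes tested in that comparison, 7.79% rose and 5.37% fell. DESeq2 called the same 7 without that library. Among all genes in that DESeq2 comparison, 1523 were called higher and 984 lower. The filter kept 14429 genes there, but how many got an adjusted p by DESeq2 was not recorded. The 7 can therefore not be set against an exact share. Without any other single library 0 members passed by edgeR, where 4 to 7 had an unadjusted p under 0.05, against 10.05% to 19.3% of all genes tested. DESeq2 called 0 to 4 there, against 1.05% to 6.34% of the genes to which it gave an adjusted p. The 4 were SMC1B, SMC3 and CTCF as higher and STAG3 as lower, all without large-follicle library 1.

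**Figure D2:**
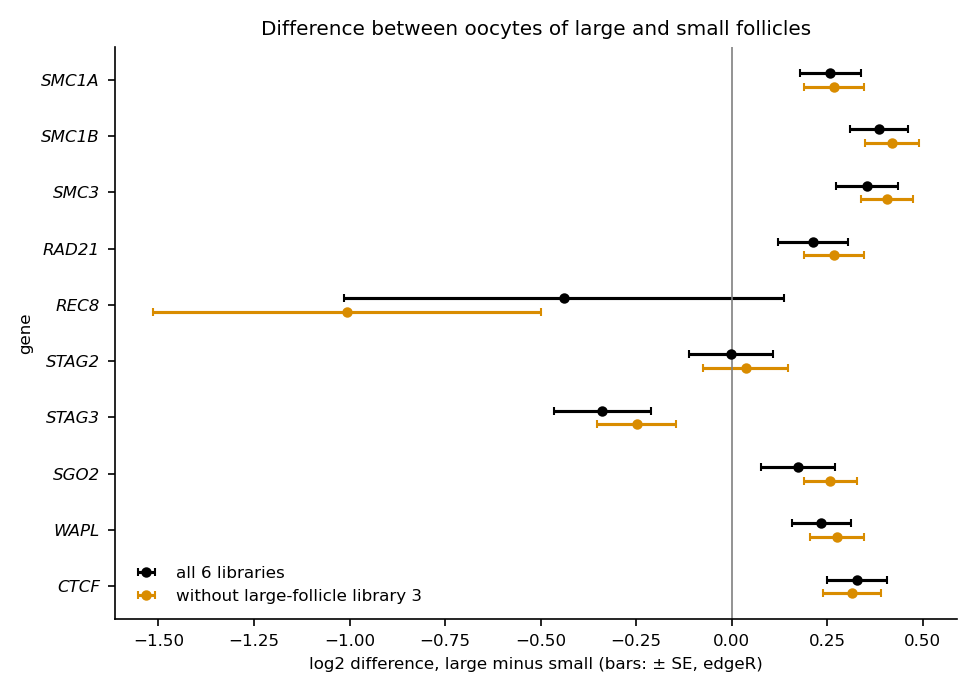
Log2 difference of each gene between oocytes of large and small follicles (large minus small, edgeR, bars ± SE), with all 6 libraries in black and without large-follicle library 3 in orange. SMC1B, SMC3 and CTCF have the highest values with all libraries (0.39, 0.35 and 0.33), STAG3 and REC8 lie below 0, and STAG2 lies at 0.

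Among the SMC proteins, which form the arms of the ring and bind ATP, all 3 transcripts were higher in each large-follicle library than in any small-follicle library. SMC1B, the meiotic SMC1, stood at 193, 195 and 177 CPM in large-follicle libraries 1, 2 and 3, against 137, 143 and 154 CPM in small-follicle libraries 1, 2 and 3. The lowest large-follicle library was library 3 and the highest small-follicle library was library 3, and the groups did not overlap. The log2 difference was 0.39 (SE 0.076), with an adjusted p of 0.0849 by edgeR and 0.000950 by DESeq2. SMC1B ranked 94 by p among all genes tested.

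SMC3, which joins every form of the ring, stood at 243, 246 and 213 CPM in large-follicle libraries 1, 2 and 3, against 181, 176 and 193 CPM in small-follicle libraries 1, 2 and 3. The order of the libraries was close to that of SMC1B, with library 3 nearest to the other group on both sides. Its log2 difference was 0.35 (SE 0.080; adjusted p = 0.0991 by edgeR and 0.00509 by DESeq2). Without large-follicle library 3 the log2 differences were 0.42 (SE 0.071) for SMC1B and 0.41 (SE 0.068) for SMC3, each with an adjusted p of 0.00873 by edgeR.

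SMC1A, the SMC1 of somatic cells, stood at 75.0, 73.1 and 70.9 CPM in large-follicle libraries 1, 2 and 3, against 63.5, 56.5 and 63.2 CPM in small-follicle libraries 1, 2 and 3. Its groups did not overlap either, and the log2 difference was 0.26 (SE 0.079; adjusted p = 0.149 by edgeR). Over all genes tested, 12.1% had groups that did not overlap with large-follicle oocytes higher, and 11.6% with large-follicle oocytes lower. Among the 10 members these counts were 6 (SMC1A, SMC1B, SMC3, RAD21, WAPL and CTCF) and 1 (STAG3).

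**Figure D3:**
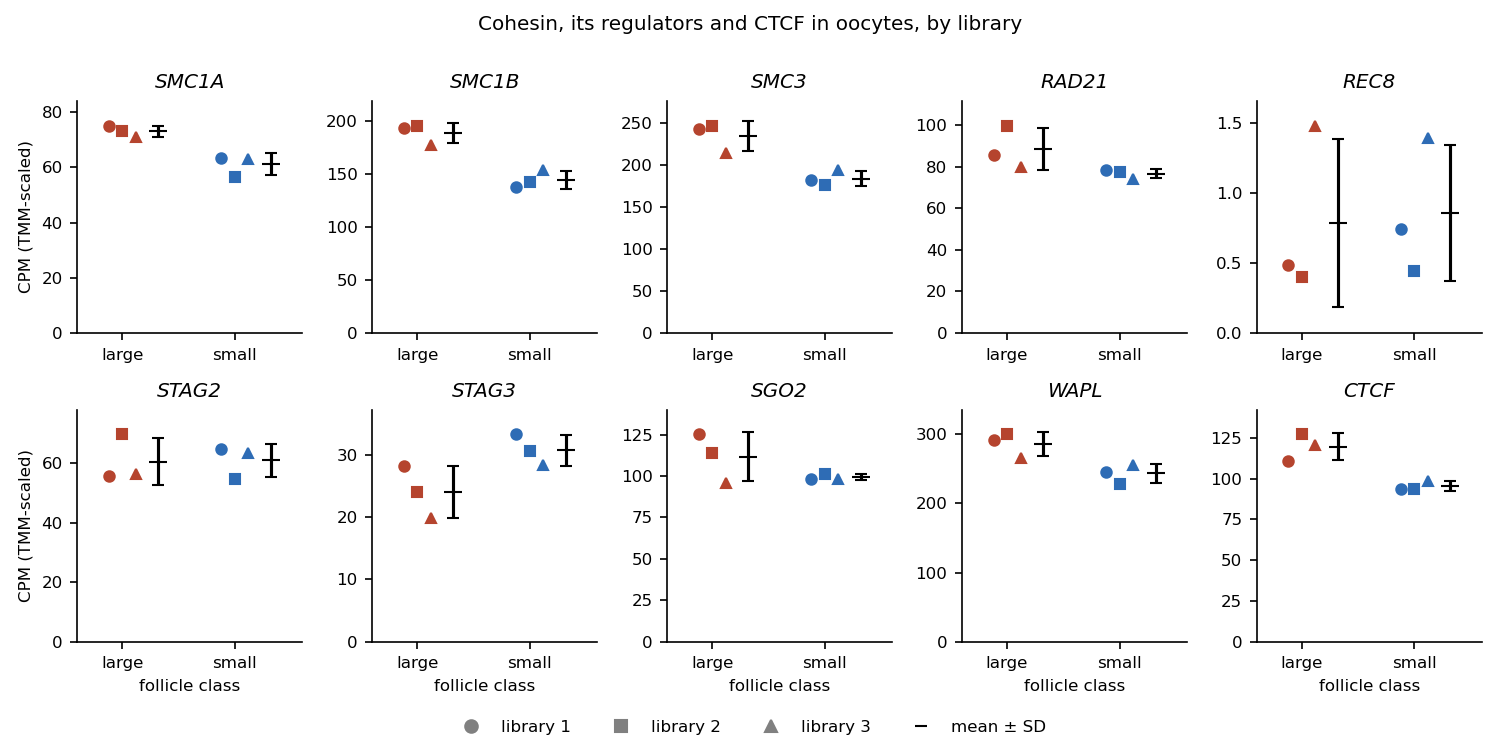
Library-size-scaled read counts (CPM) of the 10 genes in large-follicle and small-follicle oocytes, with 1 point per library and the mean ± SD beside them. The 3 large-follicle libraries of SMC1B (177 to 195 CPM) lie above the small-follicle ones (137 to 154 CPM), and those of STAG3 (19.9 to 28.3 CPM) lie just below (28.4 to 33.3 CPM).

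Of the kleisins, RAD21 carried nearly all the reads. RAD21, which is cut when somatic cells separate their chromatids, stood at 85.6, 99.8 and 80.1 CPM in large-follicle libraries 1, 2 and 3, against 78.6, 77.4 and 74.2 CPM in small-follicle libraries 1, 2 and 3. Large-follicle library 2 was the highest, and the gap between the groups was narrow. In TPM the groups overlapped, since large-follicle library 3 stood at 48.8 TPM and small-follicle library 1 at 49.4 TPM. The log2 difference was 0.21 (SE 0.092; adjusted p = 0.265 by edgeR), and without large-follicle library 3 it was 0.27 (SE 0.078; adjusted p = 0.0450). Leaving out large-follicle library 2 instead gave 0.11 (SE 0.080; adjusted p = 0.573 by edgeR).

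REC8, the meiotic kleisin, had 10, 22 and 12 reads in large-follicle libraries 1, 2 and 3, against 42, 15 and 56 reads in small-follicle libraries 1, 2 and 3. On the CPM scale large-follicle libraries had 0.484, 0.398 and 1.48, against 0.743, 0.444 and 1.39 for small-follicle libraries. The third library of each group was the highest, and the groups overlapped over their whole range. The log2 difference of -0.44 had an SE of 0.58 (adjusted p = 0.730 by edgeR). Leaving out large-follicle library 2 gave 0.0061, leaving out small-follicle library 3 gave 0.058, and leaving out large-follicle library 3 gave -1.01 (SE 0.51). RAD21L1, a further meiotic kleisin known from mouse, had 0 to 2 reads per library and did not pass the filter.

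Of the STAG subunits, STAG3 was lower in each large-follicle library than in any small-follicle library, and the groups overlapped for STAG2. STAG3, the meiotic form, stood at 28.3, 24.1 and 19.9 CPM in large-follicle libraries 1, 2 and 3, against 33.3, 30.6 and 28.4 CPM in small-follicle libraries 1, 2 and 3. Large-follicle library 1 and small-follicle library 3 almost met. STAG3 differed by -0.34 on the log2 scale (SE 0.13; adjusted p = 0.205 by edgeR), and -0.25 (SE 0.10; adjusted p = 0.136) without large-follicle library 3. Without large-follicle library 1 it was -0.46 (adjusted p = 0.107 by edgeR and 0.0269 by DESeq2).

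STAG2, a somatic form, stood at 55.7, 69.8 and 56.4 CPM in large-follicle libraries 1, 2 and 3, against 64.8, 54.6 and 63.6 CPM in small-follicle libraries 1, 2 and 3. The groups overlapped, with large-follicle library 2 the highest of all. The log2 difference was -0.0023 (SE 0.11; adjusted p = 0.996 by edgeR), and its sign changed when single libraries were left out, between -0.12 and 0.062. STAG1, the other somatic form, was not a member and is given for the comparison of subunits. It averaged 57.6 ± 7.01 CPM in oocytes of large and 49.1 ± 1.67 CPM in those of small follicles, and differed by 0.24 on the log2 scale (SE 0.097; adjusted p = 0.232 by edgeR).

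SGO2, the shugoshin that brings phosphatase 2A to centromeric cohesin in mouse oocytes, stood at 125, 114 and 95.9 CPM in large-follicle libraries 1, 2 and 3, against 98.4, 101 and 98.1 CPM in small-follicle libraries 1, 2 and 3. Large-follicle library 3 lay below all small-follicle libraries, and the other 2 large-follicle libraries lay above them. The log2 difference was 0.17 (SE 0.097; adjusted p = 0.372 by edgeR) with all libraries and 0.26 (SE 0.069; adjusted p = 0.0331) without that library. Without large-follicle library 1 it was 0.088 (SE 0.087; adjusted p = 0.632 by edgeR).

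WAPL, the release factor, stood at 293, 300.0 and 266 CPM in large-follicle libraries 1, 2 and 3, against 246, 229 and 256 CPM in small-follicle libraries 1, 2 and 3. The groups did not overlap, with library 3 of each group nearest to the other group. WAPL differed by 0.23 on the log2 scale (SE 0.077; adjusted p = 0.168 by edgeR), and 0.27 (SE 0.070; adjusted p = 0.0285) without large-follicle library 3.

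CTCF stood at 111, 127 and 121 CPM in large-follicle libraries 1, 2 and 3, against 93.6, 93.5 and 98.8 CPM in small-follicle libraries 1, 2 and 3. Here library 1, not library 3, was the lowest of the large-follicle group, and the groups did not overlap. CTCF differed by 0.33 on the log2 scale (SE 0.078; adjusted p = 0.104 by edgeR and 0.0107 by DESeq2). It was little altered without large-follicle library 3, at 0.31 (SE 0.076), where the adjusted p was 0.0234.

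**Figure D4:**
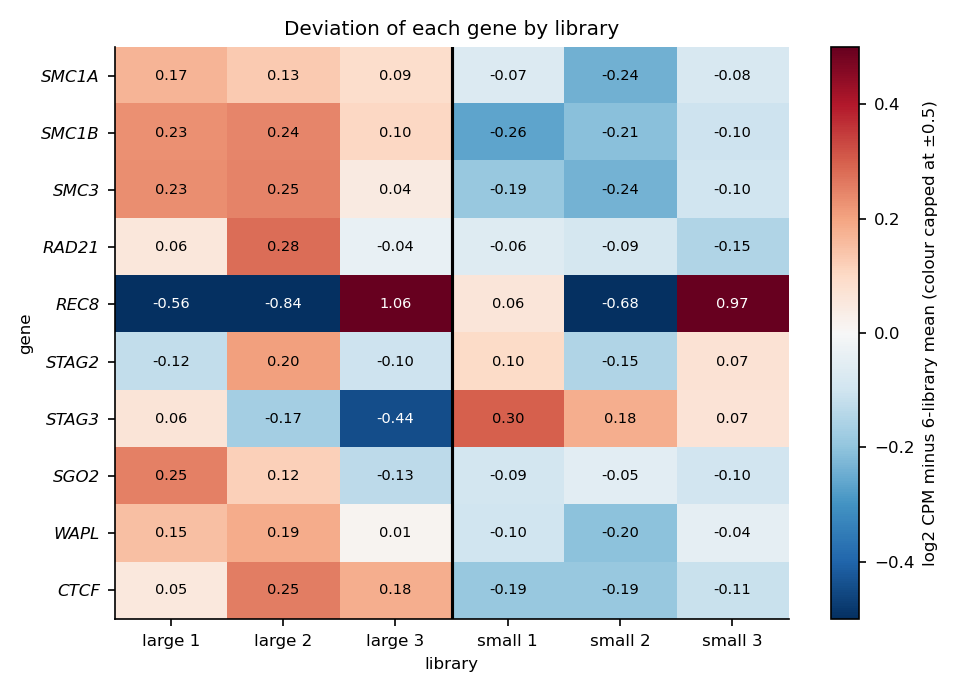
Log2 CPM of each gene in each library minus that gene's mean over the 6 libraries, with red above and blue below the mean and colour capped at 0.5. SMC1A, SMC1B, SMC3, WAPL and CTCF are above their mean in the 3 large-follicle and below it in the 3 small-follicle libraries, and REC8 ranges from -0.84 to 1.06.

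The ratios of meiotic to mitotic subunits differed widely between the positions of the ring. In large-follicle oocytes SMC1B stood at 7.40 ± 0.247 times SMC1A in TPM, against 6.80 ± 0.544 times in small-follicle oocytes (SD, n = 3 each). By library the ratio was 7.38, 7.66 and 7.17 in large-follicle libraries 1, 2 and 3, against 6.19, 7.24 and 6.97 in small-follicle libraries 1, 2 and 3. The groups overlapped, and the log2 difference of 0.12 had p = 0.20 by an exact two-sided permutation test (adjusted p = 0.40 over 4 ratios). With 3 libraries against 3 the smallest p this test can give is 0.10.

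The ratio of STAG3 to STAG2 in TPM was 1.06, 0.718 and 0.733 in large-follicle libraries 1, 2 and 3, against 1.07, 1.17 and 0.928 in small-follicle libraries 1, 2 and 3. Large-follicle library 1 lay within the small-follicle range and the other large-follicle libraries below it. The log2 difference was -0.35 (p = 0.20 by the exact permutation test, adjusted p = 0.40).

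REC8 was present at 0.00595, 0.00420 and 0.0194 of the TPM of RAD21 in large-follicle libraries 1, 2 and 3, against 0.00993, 0.00603 and 0.0198 in small-follicle libraries 1, 2 and 3. The groups overlapped (log2 difference -0.43, p = 0.50 by the exact permutation test, adjusted p = 0.50). Summed over the 3 positions, the meiotic subunits had 1.83 ± 0.131 times the TPM of SMC1A, RAD21 and STAG2 in large-follicle oocytes and 1.68 ± 0.0932 times in small-follicle oocytes. SMC1B makes up most of the meiotic sum, and RAD21 is the largest single part of the mitotic sum. The log2 difference of the summed ratio was 0.12 (p = 0.30 by the exact permutation test, adjusted p = 0.40).

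**Figure D5:**
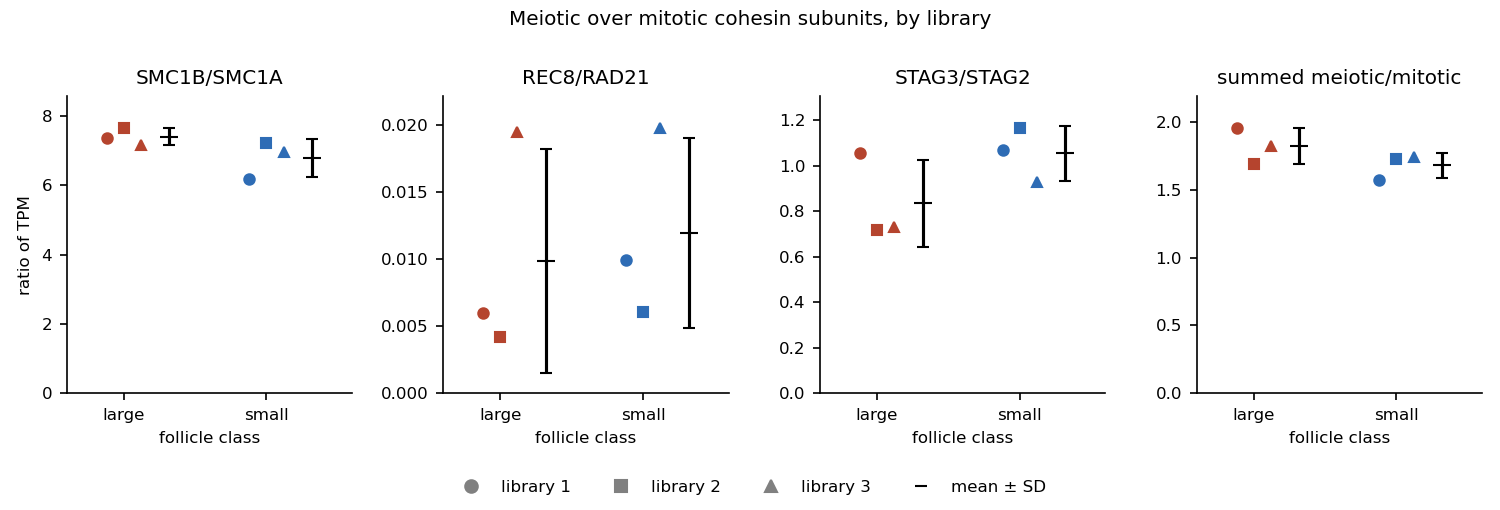
Ratio of TPM of the meiotic over the mitotic subunit in each library for SMC1B over SMC1A, REC8 over RAD21, STAG3 over STAG2 and the sums of the 3 pairs, with the mean ± SD beside the points and axes from 0. The groups overlap in each panel, and the ratio is 6.19 to 7.66 for SMC1B over SMC1A but under 0.02 for REC8 over RAD21.

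The level of these ratios rests on the gene lengths behind the deposited TPM. Read counts per TPM put the length used for SMC1B at 0.349 times that of SMC1A, and for STAG3 and STAG2 at 0.335 and 0.696 times that of SMC1A. On counts alone SMC1B had 2.503 to 2.68 times the reads of SMC1A in large-follicle libraries and 2.16 to 2.53 times in small-follicle libraries. STAG3 had 0.345 to 0.508 times the reads of STAG2 in large-follicle libraries and 0.446 to 0.561 times in small-follicle libraries. The excess of the meiotic sum in TPM is tied to these lengths as well. SMC1B, REC8 and STAG3 had 3990, 10 and 584 reads in large-follicle library 1, against 1548, 1767 and 1149 for SMC1A, RAD21 and STAG2. In large-follicle library 2 they had 10797, 22 and 1329 reads, against 4036, 5512 and 3854 for the mitotic ones. In small-follicle library 1 the meiotic subunits had 7771, 42 and 1883 reads, against 3593, 4447 and 3664 for the mitotic ones. Added up in reads, the meiotic subunits exceeded the mitotic ones in large-follicle library 1 only, and fell below them in every other library. The lengths are the same in every library. For a ratio of single genes, the log2 difference between follicle classes therefore does not depend on them. In ratios with summed TPM the lengths weight each gene, so those differences do depend on them.

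Some ratios were chosen after their values were seen and are given as a description. SMC1B over STAG3, both meiotic subunits, was 6.55, 7.79 and 8.55 in TPM in large-follicle libraries 1, 2 and 3, against 3.95, 4.47 and 5.19 in small-follicle libraries 1, 2 and 3. The groups could not overlap here, since every SMC1B value was higher and every STAG3 value lower in large-follicle oocytes. STAG3 over the sum of STAG1 and STAG2 was 0.494, 0.366 and 0.379 in large-follicle libraries, against 0.598, 0.605 and 0.502 in small-follicle libraries, again without overlap. STAG3 alone already did not overlap in TPM, while its planned ratio to STAG2 did. SMC3 over the sum of SMC1A and SMC1B was 0.897 to 0.947 in large-follicle and 0.919 to 0.966 in small-follicle libraries, which with the deposited lengths is close to a single SMC3 transcript per SMC1 transcript in all 6 libraries. WAPL over SMC3 was 0.775 to 0.803 in large-follicle libraries and 0.839 to 0.874 in small-follicle libraries, without overlap. The groups overlapped for SMC1B over SMC3, for CTCF over RAD21 and for REC8 over the sum of RAD21 and RAD21L1.

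SMC1B had the smallest p of the members. Over the 6 libraries SMC3 was the member whose pattern was most like it, with a root mean square difference of 0.041 in centred log2 CPM. The next were CTCF (0.084), WAPL (0.090) and SMC1A (0.096), while STAG3 (0.408) and REC8 (0.834) were the least like it. Among 9152 other genes with a symbol and at least 5 CPM on average, the nearest were PLRG1, a component of the spliceosome (0.022), the protein phosphatase gene PPM1B (0.031) and the gasdermin gene GSDME (0.034). PLRG1 stood at 92.7, 91.9 and 83.7 CPM in large-follicle libraries 1, 2 and 3, against 65.4, 65.9 and 70.8 CPM in small-follicle libraries 1, 2 and 3.

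Genes that load, acetylate, release or cleave cohesin, or that work beside CTCF, gave 0 calls in either direction among 14 tested of 17 listed. At an unadjusted p under 0.05 by edgeR, 4 stood higher and 0 lower in oocytes of large follicles, against 9.85% and 8.17% of all genes tested. The median log2 difference of the 14 was 0.15. DESeq2 also called 0 of them, against 3.37% as higher and 2.88% as lower of the genes to which it gave an adjusted p. ZNF143, a zinc finger transcription factor, differed by 0.24 (SE 0.072; adjusted p = 0.144 by edgeR), with 82.9 ± 3.65 CPM in oocytes of large and 70.2 ± 1.01 CPM in those of small follicles. STAG1, given above, had the next smallest p. CTCFL, the germline paralogue of CTCF, had 1 read in all 6 libraries together.

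Centromere protection and chromosomal passenger genes gave 0 calls among 20 tested of 22 listed, with a median of 0.052. By edgeR, 3 stood higher and 1 lower at an unadjusted p under 0.05, against 9.85% and 8.17% of all genes tested. DESeq2 called CENPC as higher and PPP2R1A as lower, against 3.37% and 2.88% of the genes to which it gave an adjusted p. CENPC, a centromere protein that anchors the kinetochore, differed by 0.32 (SE 0.076; adjusted p = 0.104). PPP2R1A, a scaffold subunit of phosphatase 2A, differed by -0.22 (SE 0.065; adjusted p = 0.142), with 158 ± 3.16 CPM in oocytes of large and 184 ± 1.20 CPM in those of small follicles.

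Genes of the meiotic chromosome axis and synaptonemal complex gave 0 calls among 11 tested of 14 listed, with a median of -0.0026. By edgeR, 3 stood higher and 1 lower at an unadjusted p under 0.05, against 9.85% and 8.17% of all genes tested. DESeq2 called SYCP2 as higher and TRIP13 as lower, against 3.37% and 2.88% of the genes to which it gave an adjusted p. SYCP2, an axis protein, differed by 0.25 (SE 0.071; adjusted p = 0.129), and TRIP13, an ATPase that remodels HORMA proteins, by -0.22 (SE 0.069; adjusted p = 0.153).

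Condensin and the SMC5/6 complex share the SMC ring design, and their list also held SMCHD1, which belongs to neither. This list gave 0 calls among 13 tested of 15 listed, with a median of 0.15. By edgeR, 4, SMCHD1 among them, stood higher and 2 lower at an unadjusted p under 0.05, against 9.85% and 8.17% of all genes tested. DESeq2 called SMC2 as higher and 0 as lower, against 3.37% and 2.88% of the genes to which it gave an adjusted p. SMC2, the condensin core subunit, differed by 0.42 (SE 0.092; adjusted p = 0.0970), with 197 ± 22.5 CPM in oocytes of large and 148 ± 6.21 CPM in those of small follicles. NSMCE4A, the kleisin of the SMC5/6 complex, differed by 0.25 (SE 0.077; adjusted p = 0.148). The median over all genes tested was 0.0039.

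In assembly Sscrofa11.1, SMC1A lies on chromosome X from 46143738 to 46202187 and STAG2 on chromosome X from 101476117 to 101617405. SMC3 lies on chromosome 14 from 120969629 to 121008924 and WAPL on chromosome 14 from 87492452 to 87588678. SMC1B lies on chromosome 5 from 3976098 to 4067148, RAD21 on chromosome 4 from 21772821 to 21802453 and REC8 on chromosome 7 from 75118743 to 75127759. STAG3 lies on chromosome 3 from 8175908 to 8211898, SGO2 on chromosome 15 from 104099378 to 104150723 and CTCF on chromosome 6 from 28188002 to 28261009.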

How the data were processed

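Per the labels' protocols, libraries were made from RNA of denuded oocytes with a directional kit. The deposited table has 19296 rows, each with raw read counts in whole numbers per library and, beside them, TPM that the authors scaled to the same sum in each library. Per the submitters' processing notes, the build was Sscrofa11.1. For the aligner, counter, annotation release and use of strand the entry is: not given in the sources used here. Reads of overlapping genes therefore cannot be told apart. In 25 rows the gene name had turned into a date. They held 0.153% of reads on average and were left out. Of 4604 Ensembl identifiers, 853 were given a symbol. Gene positions were taken by symbol from RefSeq's genes for that assembly.

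Counts were tested with edgeR 4.0.16 in R 4.3.3 (TMM factors, filterByExpr, robust quasi-likelihood F test on group alone, Benjamini-Hochberg adjustment over 14091 genes). Log2 differences are large minus small follicles, and their SE is their size over the root of F. CPM uses the TMM-scaled library sizes. Ratios of TPM were compared on the log2 scale by exact permutation tests. DESeq2 1.42.0 was an alternative, with other filters, size factors, a replicate block and each library left out. The scripts were tested on simulated counts. The rule for named genes took all 10 members, per pathway list the genes that passed and otherwise the 2 with the smallest p, and the 3 genes most like the member with the smallest p. The members and lists were chosen with earlier results of these data known. Libraries of the same group differed beyond sampling noise, with a chi-square of 10.4 to 22.2 per degree of freedom, and each was counted as its own sample.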

Additional observations from a re-analysis of the deposited data

How the results depend on the processing

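The member count of 0 held with DESeq2's size factors in edgeR, without a filter, at 5 CPM in 3 libraries and with the replicate block. It was 3 by DESeq2, and 0 to 7 without each library in turn by edgeR. DESeq2 without single libraries, chosen after seeing the data, called 4, 1, 7, 0, 1 and 2 members without large-follicle libraries 1, 2 and 3 and small-follicle libraries 1, 2 and 3. These were higher in large-follicle oocytes except STAG3, lower without large-follicle library 1. Over all genes, the 9 calls became 0 with DESeq2's size factors, with 2525 genes at an unadjusted p under 0.05. They became 710 by DESeq2, 52 without a filter, 20 at 5 CPM and 24 with the replicate block, and 0 to 1899 by edgeR without single libraries. DESeq2 called 738, 262, 2507, 106, 107 and 209 without the libraries in the order above. These were 1.05% to 6.34% of the genes to which it gave an adjusted p. For the setting without large-follicle library 3 that share was not worked out. The cause was not tested.

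Over all alternatives run, the sign changed for STAG2 (-0.12 to 0.062 by edgeR) and REC8 (-1.01 by edgeR to 0.25 by DESeq2) and for no other member. For STAG2 it was 0.062, 0.037, 0.042 and 0.027 without large-follicle library 1, large-follicle library 3, small-follicle library 1 and small-follicle library 3 in edgeR, and 0.058, 0.035, 0.035 and 0.026 in DESeq2. For REC8 it was 0.0061 and 0.058 without large-follicle library 2 and small-follicle library 3 in edgeR, and 0.10 and 0.25 in DESeq2. The REC8 to RAD21 difference was 0.024 and 0.023 without these libraries, with a range of -1.08 to 0.024. The other ratios kept their sign without each library (0.059 to 0.17 for SMC1B to SMC1A, -0.53 to -0.25 for STAG3 to STAG2, 0.067 to 0.17 for the sums).

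Deviations of same-numbered libraries correlated at -0.095, 0.0028 and -0.16, against -0.078 to 0.135 for differently numbered ones. With 3 libraries per group these values cannot decide whether replicate numbers pair the libraries. With the replicate block, SMC1B differed by 0.39 (adjusted p = 0.176 by edgeR).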

Other observations

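Separase and an acetyltransferase of cohesin stood far above the ring subunits per length, and were singled out after their values were seen. ESCO2, the acetyltransferase that modifies SMC3 when cohesion is set up, averaged 1281 ± 53.8 TPM in large-follicle and 1306 ± 63.4 TPM in small-follicle oocytes (SD, n = 3 each), above SMC3 in all 6 libraries. Its log2 difference was -0.021 (SE 0.079; adjusted p = 0.925 by edgeR). ESPL1, which encodes separase, the protease that cuts kleisins, averaged 331 ± 39.1 TPM in large-follicle and 304 ± 21.0 TPM in small-follicle oocytes, with a log2 difference of 0.13 (SE 0.088; adjusted p = 0.454). SGO1, the other shugoshin, averaged 81.7 ± 6.53 TPM in large-follicle and 73.9 ± 4.77 TPM in small-follicle oocytes. SGO2 averaged 58.2 ± 8.17 TPM in large-follicle and 52.0 ± 0.207 TPM in small-follicle oocytes. None of ESCO2, ESPL1 and SGO1 passed by edgeR.

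The loader NIPBL and its partner MAU2 had similar levels per length. NIPBL averaged 57.1 ± 9.21 TPM in large-follicle and 48.1 ± 4.76 TPM in small-follicle oocytes, and MAU2 averaged 56.0 ± 9.65 TPM in large-follicle and 51.6 ± 2.33 TPM in small-follicle oocytes. PDS5A, which binds rings together with WAPL, averaged 101 ± 14.6 TPM in large-follicle and 87.4 ± 4.65 TPM in small-follicle oocytes, and its paralogue PDS5B averaged 26.9 ± 2.43 TPM in large-follicle and 23.5 ± 1.26 TPM in small-follicle oocytes. NIPBL, MAU2, PDS5A and PDS5B did not pass either, with adjusted p of 0.247 to 0.562 by edgeR.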
